A study of Homo sapiens with 9 samples.

Results

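The genes described here are the subunits of potassium channels, taken as every protein-coding gene whose symbol starts with KCN. Of 61487 gene IDs counted, 123 had such a symbol. Antisense, intronic, readthrough and pseudogene entries (27 IDs) were left out, which gave 96 members: pore-forming subunits of voltage-gated, inward rectifier, tandem-pore and calcium- or sodium-activated channels, and their auxiliary subunits. RNA was sequenced from SH-SY5Y, a human neuroblastoma cell line that resembles early sympathetic neurons, after 72 h in MEM/F12 medium with 15% serum and vehicle, 10 µM citrinin or 20 µM citrinin. Citrinin is a toxin of food-spoiling moulds. There were 3 libraries at each dose, 9 in all, from 1 cell line, and the labels do not say whether they came from separate cultures, so the p-values measure the spread between these libraries, which may be technical.

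Potassium channels let potassium leave or enter the cell down its gradient and so set the resting potential, end action potentials and limit repetitive firing. Voltage-gated channels are built from pore subunits of the Kv families, some of which carry beta, KChIP or KCNE auxiliary subunits. Inward rectifiers and tandem-pore channels hold the membrane near rest, and calcium- and sodium-activated channels couple firing to intracellular ions. Neuroblastoma cells are known for the ether-à-go-go channels, whose members KCNH1 and KCNH2 have been tied to cell cycle and differentiation in tumour cells.

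Libraries held 15678443 to 19604367 reads assigned to genes, so that 3 reads equal 0.153 to 0.191 CPM (counts scaled to library depth, here with TMM factors). Deviations from the group means were shared by libraries that carry the same number (1, 2 or 3) at different doses, so each comparison is given from edgeR's quasi-likelihood fit both without and with the replicate number as a block. "Rose" and "fell" are kept for genes with a Benjamini-Hochberg adjusted p below 0.05 over all 17806 genes tested in the blocked fit. Of 16 markers of sympathetic neuroblasts, 15 passed the filter on low counts, with HAND2 averaging 1001 CPM and PHOX2A 347 CPM, whereas TH, the enzyme that starts catecholamine synthesis, had 3 reads in the 9 libraries together. Glial markers summed to 6.77 to 11.1 CPM per library, and the Schwann cell factor FOXD3 had 1 read in all.

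Of the 96 members, 87 had at least 1 read, 51 passed the filter and were tested, and 36 had reads but too few to test. The 9 without a read were KCNA5, KCNA10, KCNB2, KCNC2, KCNJ16, KCNJ18, KCNK16, KCNK18 and KCNV1. A total of 43 members averaged at least 1 CPM and 16 at least 10 CPM. KCNJ18 is nearly identical to KCNJ12, and reads that match both places were not counted, so the levels of this pair are uncertain. The ether-à-go-go family was the most completely detected, with 7 of 8 members tested. The Kv2 and silent-subunit group had 4 of 12 tested and the inward rectifiers 8 of 16.

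Per exon length, one gene stood far above the rest. KCNH2, the hERG channel that carries the rapid delayed rectifier current, averaged 43.8 ± 6.42 FPKM in vehicle (SD, n = 3 for each level in this paragraph). KCNK1, a tandem-pore channel of the TWIK type, had 7.47 ± 1.37 FPKM, and KCNT2, a sodium-activated channel, 4.55 ± 0.655 FPKM. The acid-sensitive tandem-pore channel KCNK3 had 4.10 ± 1.22 FPKM, KCNJ8, the pore of an ATP-sensitive channel, 3.64 ± 0.353 FPKM, and the small-conductance calcium-activated channel KCNN1 3.60 ± 0.689 FPKM. KCNT2, KCNK3, KCNJ8 and KCNN1 each differed from the next of these 4 by less than the larger of their SDs. Others among the 15 highest were KCNMB4, KCNJ2, KCNT1, KCND1, KCNAB2, KCNAB3 and KCNQ5, with 3.19 ± 0.296 FPKM for KCNMB4 and 2.03 ± 1.20 FPKM for KCNQ5. KCNC1, a Kv3 channel that lets neurons fire fast, was 22nd with 1.21 ± 0.659 FPKM, and KCNH1, the first ether-à-go-go channel, was 25th with 0.878 ± 0.170 FPKM. The level and rank of KCNH1 may be too low. Reads over exons that other genes overlap were not counted, but the whole exon length was used. KCNH2 alone took 30.7% to 37.6% of all KCN reads in a library.

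**Figure D1:**
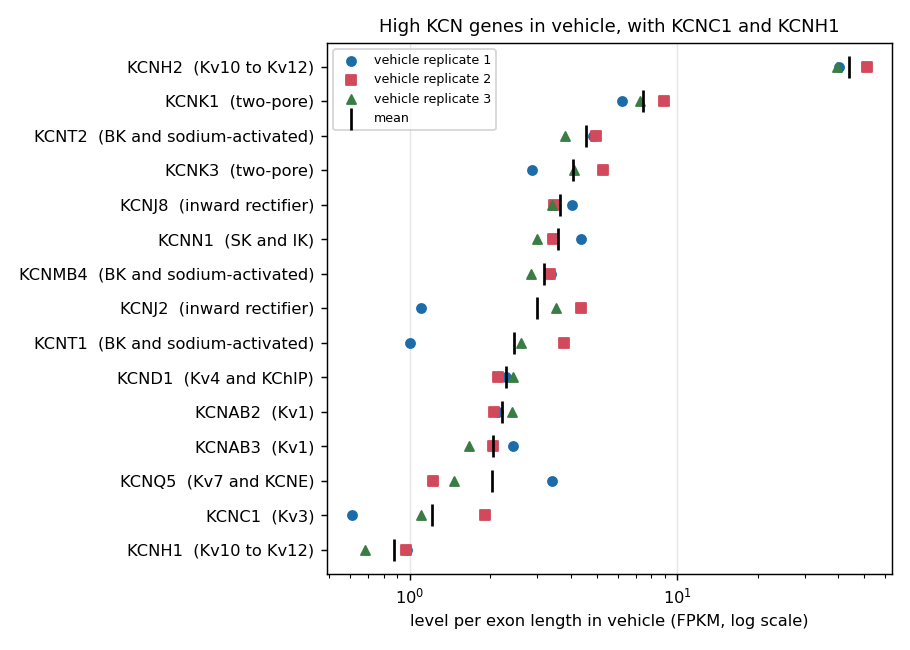
Level per exon length (FPKM, log axis) in the 3 vehicle libraries for 13 of the highest KCN genes and for KCNC1 and KCNH1, with the channel group in brackets; points are libraries and the bar is the mean. KCNH2 lies far to the right of all others, and the libraries of KCNJ2, KCNT1 and KCNC1 are spread widely, with replicate 1 lowest.

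Setting 20 µM citrinin against vehicle asked which channel transcripts change at the higher dose. Among the members that fell were KCNH1 and KCNC1. In all 3 members fell, 0 rose and 48 of the 51 tested did not pass in edgeR's blocked fit. The 3 that fell make 5.88% of the members tested, where 1.36% of all genes tested fell, 0.848% rose and 2.21% did either. Without the block 0 of 51 members and 0% of all genes passed in edgeR (1 member and 387 genes had an unadjusted p below 0.05), and neither DESeq2 nor limma-voom called a member without it. With the block both of these tools called KCNH1 alone. The median log2 fold change over the 51 members was -0.07, against -0.00 over all genes, with 30 members below 0 and 21 above. The summed level of all 96 members averaged 692 ± 84.2 CPM at 20 µM and 742 ± 109 CPM in vehicle (SD, n = 3 each). The difference is smaller than these SDs, but the sum was lower in 3 of 3 same-numbered pairs, at 0.951, 0.909 and 0.945 of the vehicle level, and it was not tested. KCNH2 alone makes up 30.7% to 37.6% of this sum and averaged 229 CPM at 20 µM, against 257 CPM in vehicle. Not every group was lower, since the summed Kv1 group averaged 48.9 CPM at 20 µM and 42.3 CPM in vehicle.

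KCNH1 (ENSG00000143473, chr1:210676823-211134180, minus strand, GRCh38), a voltage-gated channel of the brain that many tumours also express, had the smallest p of the family. Its reads were counted as 165, 168 and 114 in vehicle replicates 1 to 3, as 157, 116 and 129 at 10 µM, and as 91, 85 and 81 at 20 µM. Scaled for depth, these are 9.64, 9.53 and 6.69 CPM in vehicle, 9.05, 7.48 and 6.59 CPM at 10 µM, and 5.48, 4.86 and 4.62 CPM at 20 µM. All 3 libraries at 20 µM lay below all 6 others. The mean fell to 4.99 ± 0.445 CPM at 20 µM, against 8.62 ± 1.67 CPM in vehicle (SD, n = 3 each), a log2 fold change of -0.78 ± 0.15 (SE, edgeR with the block, adjusted p = 0.00238). Within same-numbered pairs the 20 µM library held 0.569, 0.510 and 0.691 of the vehicle level. Without the block the estimate was -0.79 ± 0.20, with an unadjusted edgeR p of 0.00266 that did not pass. In the blocked edgeR fit the call was lost without vehicle replicate 2 (adjusted p = 0.0944) and without all 3 libraries of replicate 3 (adjusted p = 0.0543).

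The count of KCNH1 covers part of the gene. Exons of other annotated genes overlap 53.0% of its exon length, and reads there were left out of the count of both strands together. Summing the counts of each strand, which keeps such reads but may add transcripts of the opposite strand, gave 3222 reads in place of 1106. On that count KCNH1 had 497, 419 and 355 reads in vehicle, 448, 293 and 385 at 10 µM, and 328, 251 and 246 at 20 µM. The groups at 20 µM and vehicle again did not overlap, and KCNH1 had a log2 fold change of -0.61 ± 0.09 (adjusted p = 0.000248, edgeR with the block).

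KCNC1 (ENSG00000129159, chr11:17734774-17856804, plus strand), the Kv3 subunit of fast-spiking neurons, had 8.82, 27.6 and 15.8 CPM in vehicle, 9.86, 26.0 and 15.7 CPM at 10 µM, and 7.71, 18.6 and 11.6 CPM at 20 µM. The groups overlap widely, since replicate 2 was highest and replicate 1 lowest at every dose, but within each number the 20 µM library was the lowest of the 3. KCNC1 averaged 12.6 ± 5.51 CPM at 20 µM and 17.4 ± 9.50 CPM in vehicle (SD, n = 3 each). The log2 fold change was -0.44 ± 0.10 (SE, adjusted p = 0.0206, edgeR with the block), and the 20 µM library held 0.874, 0.673 and 0.731 of its vehicle partner. Without the block the same contrast was -0.46 ± 0.51, with an unadjusted edgeR p of 0.389. The blocked call was lost in DESeq2 (adjusted p = 0.0631) and limma-voom (0.0527), without vehicle replicate 2 (0.387) or 3 (0.137), without 20 µM replicate 2 (0.170) or 3 (0.140), and with number 2 (0.306) or number 3 (0.436) dropped at every dose.

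**Figure D2:**
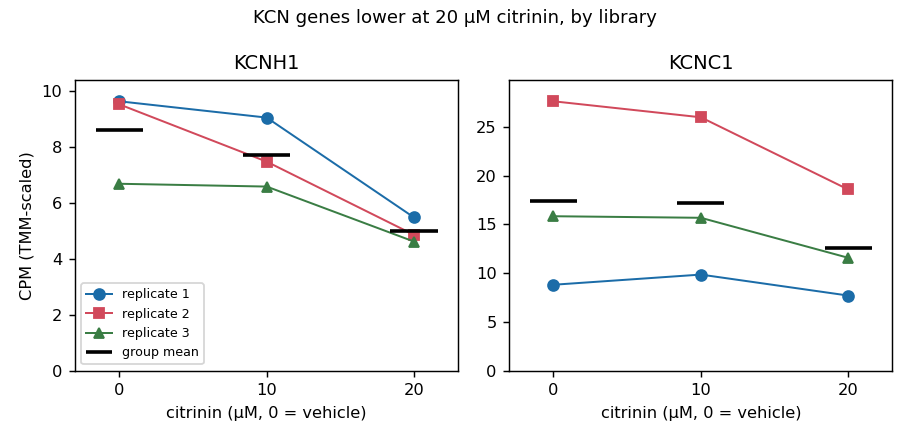
CPM of KCNH1 and KCNC1 (vertical axes start at 0) against citrinin dose in µM; each line joins the libraries of 1 replicate number and black bars are group means (n = 3). The 20 µM library is the lowest of its line for both genes, and replicate numbers are far apart for KCNC1 but not for KCNH1.

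The same contrast moved markers of the cells themselves. Of the 15 neuroblast markers tested, 12 fell at 20 µM in edgeR's blocked fit, 0 rose and 3 did not pass, with a median log2 fold change of -0.22. Of all genes tested, 1.36% fell and 0.848% rose in that fit. The neuroblast markers summed to 2980 to 3880 CPM at 20 µM and to 3620 to 4510 CPM in vehicle. Of 12 mesenchymal markers, TGFBI (0.41), YAP1 (0.32), CD44 (0.44) and VIM (0.21) rose by these log2 fold changes and 8 did not pass. The median over the 12 was 0.02, and the list summed to 4180 to 5900 CPM at 20 µM and 3800 to 5490 CPM in vehicle. The part of either list in the decreases of KCNH1 and KCNC1 was not tested. In bulk RNA, fewer cells of a type and less RNA per cell cannot be told apart.

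The promoter windows of KCNH1 and KCNC1 are shown because these genes had the smallest p of the family. Each runs from 250 bases before to 50 bases after a RefSeq transcription start (GRCh38.p14), and capitals mark the GC box, GGGCGG on either strand. KCNH1 lies at chr1:211134099-211134398 on the minus strand and KCNC1 at chr11:17734531-17734830 on the plus strand.
KCNH1: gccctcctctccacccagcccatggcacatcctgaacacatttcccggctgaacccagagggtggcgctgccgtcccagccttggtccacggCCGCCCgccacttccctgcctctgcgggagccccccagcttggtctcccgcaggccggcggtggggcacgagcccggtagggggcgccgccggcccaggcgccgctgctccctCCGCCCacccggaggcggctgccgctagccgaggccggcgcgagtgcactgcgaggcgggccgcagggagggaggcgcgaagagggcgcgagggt
KCNC1: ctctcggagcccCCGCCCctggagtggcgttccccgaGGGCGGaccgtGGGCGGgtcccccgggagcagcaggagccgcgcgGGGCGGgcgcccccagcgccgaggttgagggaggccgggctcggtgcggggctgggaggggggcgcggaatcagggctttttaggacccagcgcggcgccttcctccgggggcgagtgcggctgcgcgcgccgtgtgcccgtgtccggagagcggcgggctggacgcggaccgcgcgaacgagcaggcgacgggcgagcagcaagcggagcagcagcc
The KCNH1 window had 76% G and C, 32 CpG pairs and 2 GC boxes, and the printed KCNC1 window 78.3%, 44 CpG pairs and 4 GC boxes. KCNC1 has another RefSeq start, whose window at chr11:17735698-17735997 is not printed. That window had 72.3% G and C, 24 CpG pairs and 0 GC boxes. A GC box stood in 45% of 35116 promoter windows of the same length and in 50.9% of the 110 windows of 72 KCN genes. The core of the antioxidant response element, searched as TGACNNNGC on both strands, was in 0 of the windows of KCNH1 and KCNC1 printed above, in 10.9% of KCN windows and in 13.3% of all windows.

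In the rest of the ether-à-go-go family no member passed at 20 µM, and the 7 tested had a median log2 fold change of -0.10. KCNH2 had 232, 248 and 207 CPM at 20 µM, against 238, 301 and 234 CPM in vehicle. Each 20 µM library was lower than its partner, holding 0.979, 0.825 and 0.886 of its level, but the log2 fold change of -0.16 ± 0.05 did not pass (adjusted p = 0.102, edgeR with the block). It passed in the blocked fit without 20 µM replicate 1 (-0.24, adjusted p = 0.000789), without 10 µM replicate 2 (-0.16, 0.0237) and with number 1 dropped at every dose (-0.23, 0.00902). KCNH3, a channel of the ELK branch, averaged 0.928 CPM at 20 µM and 0.499 CPM in vehicle, where 3 reads equal at most 0.191 CPM (log2 fold change 0.89 ± 0.47, adjusted p = 0.440). KCNH4, KCNH6, KCNH7 and KCNH8 lay between -0.16 and 0.13.

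All 5 tested members of the Kv1 group had positive log2 fold changes at 20 µM and none passed, with a median of 0.23. KCNAB2, a beta subunit that binds the Kv1 pore from inside the cell, had 25.9, 25.8 and 22.5 CPM at 20 µM, against 20.4, 19.7 and 23.1 CPM in vehicle. Replicates 1 and 2 were higher at 20 µM and replicate 3 was not (log2 fold change 0.23 ± 0.09, adjusted p = 0.244, edgeR with the block). KCNAB1, another beta subunit, had 0.28 ± 0.13 (adjusted p = 0.337), and the pore subunit KCNA2 0.71 ± 0.33 (adjusted p = 0.341) at 1.94 ± 0.749 CPM, against 1.23 ± 0.723 CPM in vehicle. The summed Kv1 group averaged 48.9 ± 5.21 CPM at 20 µM and 42.3 ± 4.02 CPM in vehicle (SD, n = 3 each).

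Among the other voltage-gated groups, KCNC4, of the Kv3 group, had a log2 fold change of 0.08 ± 0.14 at 20 µM (adjusted p = 0.871, edgeR with the block). KCNG3, a subunit that forms no channel alone and modifies Kv2, had 2.29, 1.54 and 1.48 CPM at 20 µM, against 2.69, 2.50 and 2.35 CPM in vehicle. Its groups did not overlap, yet the log2 fold change of -0.51 ± 0.28 did not pass (adjusted p = 0.457). KCNQ3, a subunit of the M-channel that brakes repetitive firing, had 6.26, 7.38 and 6.90 CPM at 20 µM, against 7.71, 7.66 and 7.68 CPM in vehicle. These groups also did not overlap, and the log2 fold change was -0.17 ± 0.14 (adjusted p = 0.669). KCNQ5, which also carries M-current, had 0.09 ± 0.11, and the 4 tested Kv4 and KChIP genes lay between -0.57 and 0.14. Of the 51 members tested, 3 (KCNH1, KCNG3 and KCNQ3) had every 20 µM library below every vehicle library and 0 had the reverse, where 3.35% and 3.4% of all genes tested did.

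Of the calcium- and sodium-activated channels none passed. KCNMA1, the pore of the large-conductance calcium-activated channel, had 30.2, 35.1 and 43.2 CPM at 20 µM, against 31.5, 23.9 and 35.3 CPM in vehicle. Replicates 2 and 3 were higher at 20 µM and replicate 1 was slightly lower (log2 fold change 0.26 ± 0.09, adjusted p = 0.139, edgeR with the block). KCNMA1 passed without a filter on low counts (0.26, adjusted p = 0.0495), without 20 µM replicate 1 (0.40, 0.00179) and with number 1 dropped at every dose (0.41, 0.00509). Its neuronal beta subunit KCNMB4 had -0.07 ± 0.10 and the sodium-activated KCNT2 -0.20 ± 0.08 (adjusted p = 0.272). The beta subunit KCNMB3, of whose exon length 47.5% is overlapped by exons of other genes, had -0.47 ± 0.38 on the joint count and 0.19 ± 0.10 on the strand-summed count. Summing took its reads from 319 to 2793, which may include transcripts of an opposite-strand gene, so its direction is uncertain. The small-conductance channels KCNN1 and KCNN3 had -0.15 ± 0.11 and 0.25 ± 0.15.

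The 8 inward rectifiers tested had a median log2 fold change of -0.08 at 20 µM, ranging from -0.41 to 0.21, and none passed. KCNJ3, a pore subunit of the G protein-gated channel, had 14.9, 2.80 and 5.42 CPM at 20 µM, against 16.9, 3.97 and 6.63 CPM in vehicle. It was lower in 3 of 3 pairs (-0.28 ± 0.14, adjusted p = 0.375, edgeR with the block). KCNJ2, the classical strong rectifier, was also lower in 3 of 3 pairs (-0.18 ± 0.10, adjusted p = 0.469). The 7 tandem-pore channels tested had a median of -0.09 and none passed. KCNK1 had 21.1, 27.1 and 22.4 CPM at 20 µM, against 22.5, 32.4 and 26.3 CPM in vehicle, lower in 3 of 3 pairs (-0.20 ± 0.09, adjusted p = 0.296).

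**Figure D3:**
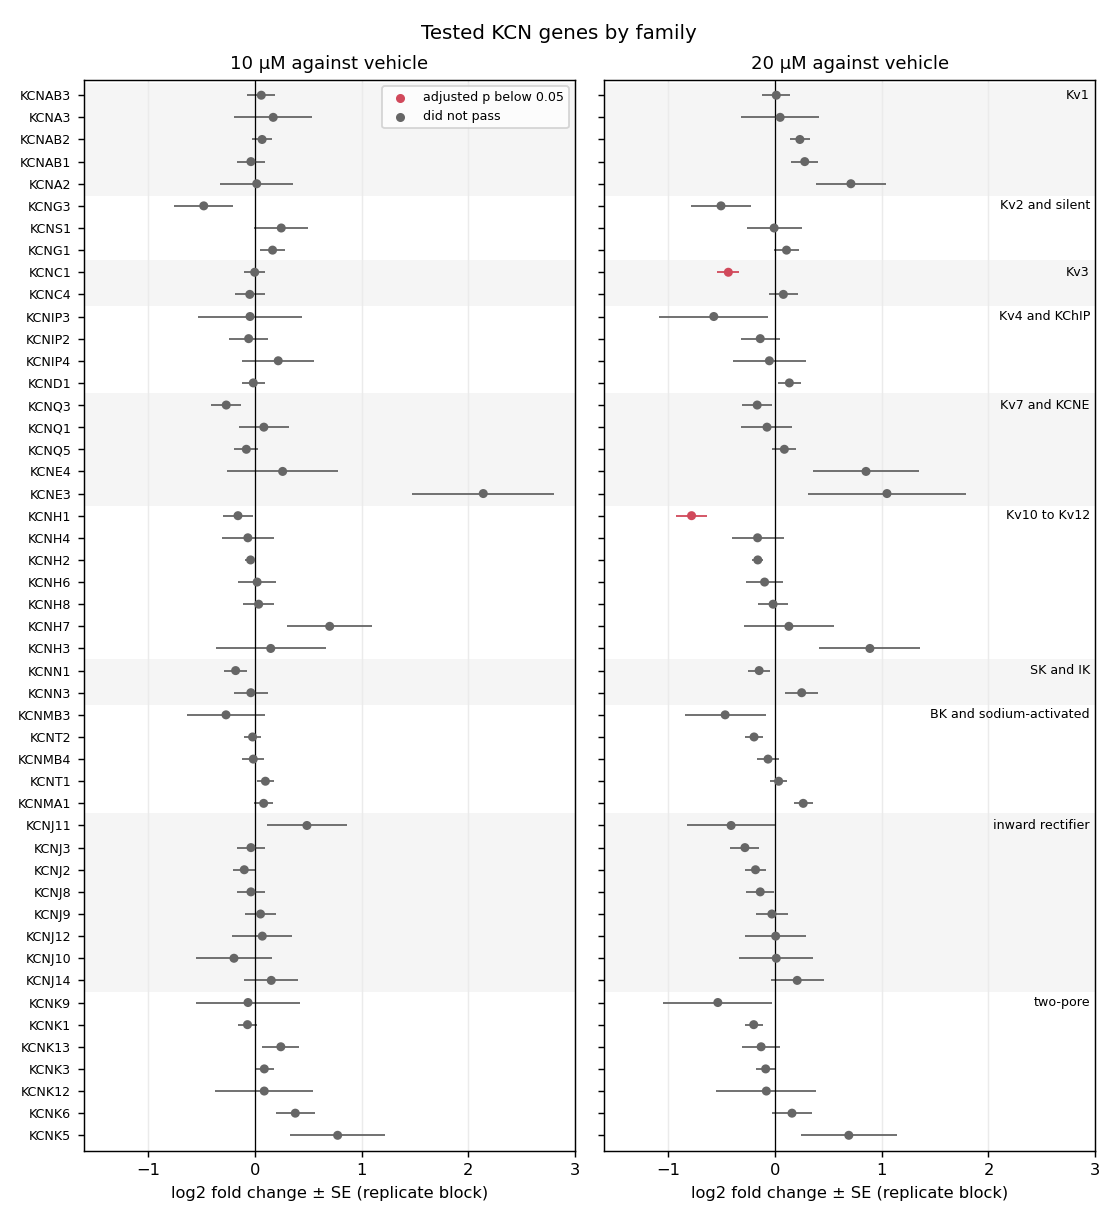
Log2 fold change ± SE from edgeR's blocked fit for 48 of the 51 tested KCN genes, by channel group, at 10 µM (left) and 20 µM (right) against vehicle; red marks an adjusted p below 0.05. Red points appear at 20 µM for KCNC1 (-0.44) and KCNH1 (-0.78), and KCNE3 lies farthest from 0 at 10 µM with a wide error.

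At 10 µM against vehicle, 0 of the 51 members passed in edgeR's blocked fit, where 0.0337% of all genes did (6 genes, all higher). Without the block 0 members passed as well, and 1 member had an unadjusted p below 0.05 in either fit. Of all 17806 genes, 640 had one with the block and 115 without it. The median log2 fold change was 0.02, with 25 members below 0 and 26 above. KCNH1 averaged 7.71 ± 1.25 CPM at 10 µM (-0.16 ± 0.14 against vehicle) and KCNC1 17.2 ± 8.16 CPM (-0.00 ± 0.10). This comparison and that of 20 µM share their vehicle libraries.

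The member with the smallest p at 10 µM was KCNE3, an auxiliary subunit that holds KCNQ1 open in epithelia. It had 0.634, 0.645 and 0.766 CPM at 10 µM, against 0.0584, 0.170 and 0.235 CPM in vehicle, and the vehicle levels rest on 1, 3 and 4 reads. All 3 libraries at 10 µM were above vehicle, with a log2 fold change of 2.14 ± 0.66 (edgeR with the block, unadjusted p = 0.00344) that did not pass adjustment. Exons of an opposite-strand gene overlap 16.6% of the exon length of KCNE3, and on strand-summed counts its log2 fold change was 0.77 with the block and 0.80 without it. At 20 µM KCNE3 had 0.120, 0.114 and 0.798 CPM, so that 1 library was high and the others were in the vehicle range. KCNK6, a tandem-pore channel, averaged 4.98 ± 0.429 CPM at 10 µM and 3.88 ± 1.15 CPM in vehicle (0.38 ± 0.18). KCNK5, another of that family, had 1.84, 0.645 and 0.766 CPM at 10 µM, against 0.642, 0.624 and 0.587 CPM in vehicle, so that replicate 1 at 10 µM stood apart. The log2 fold change of KCNK5 was 0.78 ± 0.44, but 0.22 without that library, and 0.22 to 1.19 over the blocked fits that leave out a library or number. KCNH7, of the hERG branch, had 0.70 ± 0.40, at under 2 CPM in most libraries, and 0.32 without vehicle replicate 3. KCNG3 (-0.48 ± 0.28) and KCNQ3 (-0.27 ± 0.14) were lower in 3 of 3 pairs. Among the members tested, every 10 µM library lay below every vehicle library for KCNG3, KCNQ3 and KCNJ10 and above for KCNE3 and KCNK5, where 1.95% of all genes tested were below and 2.06% above.

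Between the doses, 20 µM against 10 µM, 0 of the 51 members passed in edgeR's blocked fit, where 0.444% of all genes did. In that fit 9 members and 1568 of all 17806 genes had an unadjusted p below 0.05. Without the block 2 members and 210 genes did. The median log2 fold change was -0.08, with 37 members below 0 and 14 above, against -0.00 over all genes. KCNH1 averaged 4.99 ± 0.445 CPM at 20 µM and 7.71 ± 1.25 CPM at 10 µM (SD, n = 3 each). Its log2 fold change was -0.62 ± 0.15 (SE, adjusted p = 0.0560, edgeR with the block). On the strand-summed count KCNH1 passed this comparison too (-0.43 ± 0.09, adjusted p = 0.0282). KCNC1 had -0.44 ± 0.10 (adjusted p = 0.0563) and each 20 µM library held 0.782, 0.715 and 0.739 of its 10 µM partner. KCNJ11, the pore of the ATP-sensitive channel of neurons and beta cells, had 0.783, 0.629 and 0.684 CPM at 20 µM, against 1.33, 1.74 and 0.919 CPM at 10 µM. The groups of KCNJ11 did not overlap, but the log2 fold change of -0.90 ± 0.39 did not pass (adjusted p = 0.508). KCNAB1 (0.32 ± 0.13), KCNH2 (-0.12 ± 0.05), KCNT2 (-0.17 ± 0.08), KCNA2 (0.69 ± 0.33) and KCNK13 (-0.37 ± 0.18) were among the others with an unadjusted p below 0.05 in the blocked fit, and none passed adjustment. KCNH1 and KCNJ11 were the tested members with every 20 µM library below every 10 µM library, where 2.5% of all genes tested were, and 0 tested members were above, where 2.37% were.

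The KCN genes differed more between replicate numbers than between doses. The F test of the replicate number in edgeR called 34 of the 51 tested members (66.7%), where 43.3% of all genes were called. For the median member the replicate number took 74.2% of the variance of log2(CPM + 0.1) and the dose 9.91%, against 55.1% and 11.4% for the median gene. Of the 34 members called, replicate 1 was lowest in 24 and highest in 5, and all 3 libraries of replicate 1 lay below the other 6 in 18. Such counts were not made over all genes, so a low replicate 1 is not shown to be particular to KCN genes. With replicate 1 left out, 18 members were called between replicates 2 and 3, where 2633 of the 17850 genes tested in that fit were. The labels do not say what the numbers stand for.

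The pattern was clearest in the sodium-activated channel KCNT1. It had 12.2, 45.9 and 31.8 CPM in vehicle replicates 1 to 3, 15.1, 43.9 and 35.1 CPM at 10 µM, and 14.8, 42.4 and 32.7 CPM at 20 µM. KCNJ2 followed the same order, with 6.13, 24.4 and 19.7 CPM in vehicle, 5.54, 22.6 and 18.9 CPM at 10 µM, and 4.70, 22.8 and 17.5 CPM at 20 µM. In both genes the dose groups are nearly superimposed and each number keeps its own level. KCNK13, a tandem-pore channel, was lowest in replicate 1 and highest in replicate 3, averaging 1.29, 5.50 and 8.74 CPM over the doses in replicates 1, 2 and 3. KCNJ3 ran the other way, at 16.2, 3.57 and 6.13 CPM, and so did KCNQ5, a channel of the M-current, at 24.6, 9.73 and 11.5 CPM. KCNH1 was not called between numbers (adjusted p = 0.0541, edgeR F test), and the dose took 75.9% and the number 19.6% of its variance.

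Marker genes moved with the replicate number as well. All 15 neuroblast markers and all 12 mesenchymal markers tested were called by the same F test, where 43.3% of all genes were. It called 1 of the 5 glial markers tested and 3 of the 4 epithelial markers tested. Neuroblast markers summed to 3880 to 4290 CPM in replicate 1, 3730 to 4510 CPM in replicate 2 and 2980 to 3620 CPM in replicate 3. Mesenchymal markers summed to 4980 to 5230 CPM, 3720 to 4180 CPM and 5480 to 5900 CPM in the same order, so replicate 3 was lowest in the first list and highest in the second. Their part in the differences of KCN genes between numbers was not tested.

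**Figure D4:**
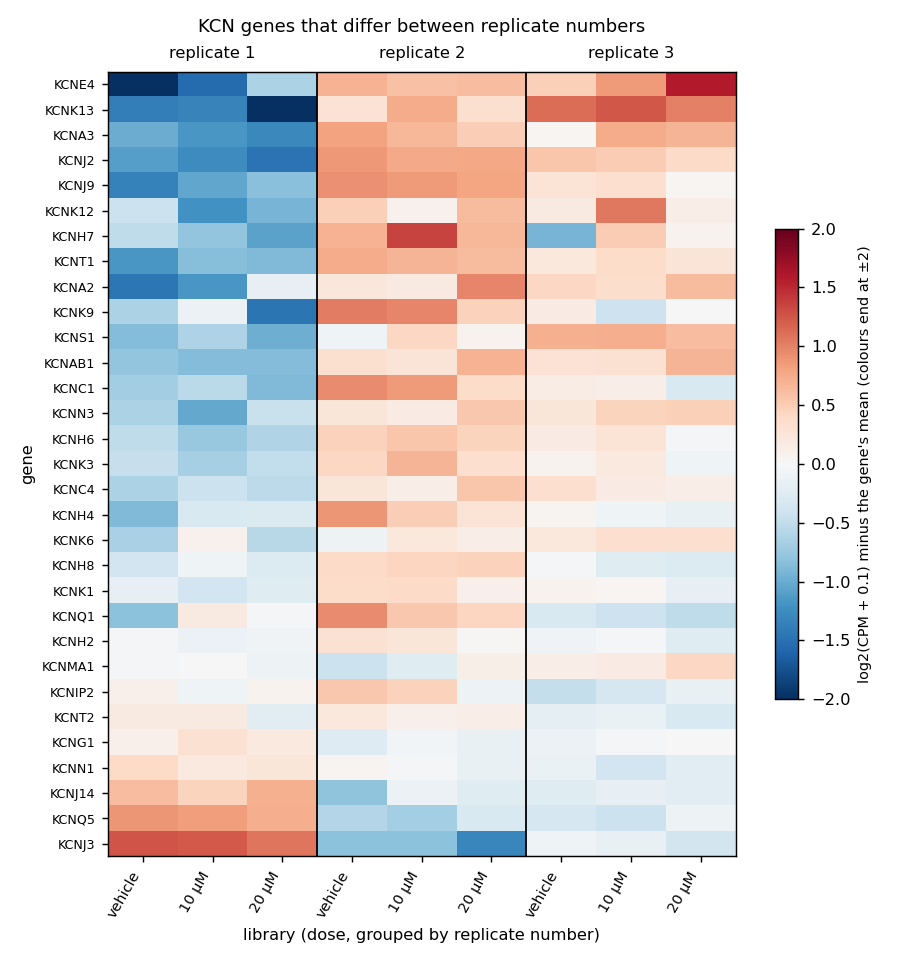
KCN genes called between replicate numbers (31 of the 34, as rows), as log2(CPM + 0.1) minus the gene's mean over the 9 libraries (columns, grouped by replicate number, with dose from vehicle to 20 µM within each). Most rows are blue in replicate 1 and red in replicate 2, and columns of 1 number look alike across doses. KCNJ3, KCNQ5, KCNJ14 and, by a smaller difference, KCNG1 are the reverse, and KCNN1 is also highest in replicate 1.

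Genes that work with potassium channels but carry other symbols were read from fixed lists. Of 25 partner genes 20 were tested. ADAM22, a membrane protein found with Kv1 channels at axons and synapses, was the one that fell at 20 µM, to 226, 340 and 258 CPM, against 260, 392 and 302 CPM in vehicle. Its log2 fold change was -0.21 ± 0.05 (adjusted p = 0.0210, edgeR with the block), and the list's median was -0.07. Of 20 potassium pump and cotransporter genes 12 were tested, and ATP1B1, the beta subunit of the sodium-potassium pump, fell to 364, 347 and 356 CPM at 20 µM, against 453, 405 and 432 CPM in vehicle. All 3 libraries of ATP1B1 at 20 µM were below those in vehicle (-0.27 ± 0.04, adjusted p = 0.000331), while the median of that list was -0.00. The other 19 partners and 11 pump and cotransporter genes did not pass, and neither list had a call at 10 µM or between the doses. Over all genes tested, 1.36% fell at 20 µM and 2.21% were called in either direction. Neither list was tested as a set, so a single call is not a result about its list. The sulfonylurea receptor ABCC8, which joins KCNJ11, averaged 1.94 CPM, and ABCC9, which joins KCNJ8, 0.381 CPM over the 9 libraries.

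The 45 untested members include channels known from other excitable cells. The highest of them averaged 0.428 CPM over the 9 libraries. KCNA1, KCNA4 and KCNA6, all Kv1 pores, had 0 to 2 reads per library, though exons of another gene cover 100% of KCNA6, and KCND2 and KCND3, the main A-type channels of neurons and heart, had 0 to 6. KCNK10, a mechanosensitive tandem-pore channel chosen here after its values were seen, had 10, 4 and 10 reads in vehicle, 3, 4 and 3 at 10 µM, and 1, 2 and 2 at 20 µM. Every 20 µM library was below every vehicle and every 10 µM library in CPM, at counts near the 3 reads that a count of 0 allows, and the gene did not enter the test.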

How the data were processed

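Transcripts were measured by RNA-seq of total RNA in 9 libraries. The submitters' processing notes name FastQC, cutadapt, STAR, edgeR and the build GRCh38, without versions. The annotation used for counting is not stated there. The authors deposited raw read counts per gene for both strands together and for each strand, and the joint count was used. Reads matching several places or 2 genes are not in it, and strand was not kept by the kit, so overlapping genes cannot be told apart.

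Symbols were matched for 61474 of 61487 IDs. Exon lengths and coordinates (58312 IDs) came from GENCODE 29. Genes were kept by filterByExpr at its defaults, scaled by TMM and fitted with edgeR's robust quasi-likelihood test on all 9 libraries (edgeR 4.0.16 in R 4.3.3; alternatives with DESeq2 1.42.0 and limma 3.58.1). FPKM used TMM-scaled counts and union exon length. The planned fit had no covariate and 6 residual degrees of freedom. Deviations from the group means correlated at 0.457 to 0.685 in all 9 same-numbered pairs (numbers from the sample titles; limit 0.1) and at -0.545 to 0.139 in the others, so the numbers were taken to pair the libraries; that fit had 4 residual degrees of freedom. The scripts were tested on simulated counts.

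The members, lists, tests and alternatives were chosen with earlier results of these data known. Named genes are every member called in any fit, the 6 (blocked) and 3 (unblocked) with the smallest p per comparison, the 15 highest per length in vehicle, and the 5 with the smallest p for the replicate number; others are examples of their family. Some members and markers are not reported here by name, and counts, medians and sums include them.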

Additional observations from a re-analysis of the deposited data

How the results depend on the processing

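The planned edgeR fit without a block called 0 KCN genes in each dose comparison, also with DESeq2, limma-voom, other scalings, other filters and with each library left out. The replicate block moved the count for 20 µM against vehicle to 3, and it stayed at 3 with DESeq2 size factors, library size alone, a filter of 30 reads in 3 libraries and strand-summed counts (the strand sum and the combinations of the block with library size or that filter were added after seeing the data). It was 4 with no filter, where KCNMA1 joined, and 1 in DESeq2 and 1 in limma-voom with the block. Leaving out 1 library or 1 number from the blocked fit gave 0 to 4 (0 without vehicle replicate 2 and without number 3, 1 without vehicle replicate 3, 20 µM replicate 2 or 3, or number 2, 2 without vehicle replicate 1 or 10 µM replicate 3, 3 without 10 µM replicate 1, and 4 without 10 µM replicate 2, 20 µM replicate 1 or number 1). For 20 µM against 10 µM the blocked count of 0 became 2 with no filter and 1 with strand-summed counts, and 0 to 3 with a library or number left out (3 without 20 µM replicate 1). For 10 µM it was 0 in every setting. The count of members called between replicate numbers was 34, and 18 to 34 with a library or number left out (18 without number 1).

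Among the named genes' log2 fold changes 650 kept direction and side of the threshold, 44 newly passed (all with the block) and 14 changed sign, none of which passed. KCNC1 at 10 µM, near 0, turned positive in blocked fits with DESeq2 (0.00520), no filter (3.46e-05), the 30-read filter (0.00133), strand-summed counts (0.0106), and without vehicle replicate 2 (0.0756) or 3 (0.00844), 10 µM replicate 2 (0.0129) or 3 (0.00430), or number 2 (0.0608) or 3 (0.0169). With 1 library left out and no block KCNC1 ran from -0.448 to 0.475 at 10 µM and from -0.853 to 0.0349 at 20 µM against vehicle. With the block the 20 µM estimates against vehicle stayed between -0.52 and -0.34 for KCNC1 and between -0.89 and -0.61 for KCNH1. The cause of these changes was not tested. Depth limits the 45 untested members, the highest of which averaged 0.428 CPM.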
